A study of Mus musculus with 12 samples.

Results

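This section describes 35 genes of the pyruvate dehydrogenase complex and the tricarboxylic acid (TCA) cycle in astrocytes of mice with and without Cd38. The genes were listed by name and function among the 20614 genes of the table. No measured value entered the rule, but the list was made with earlier results of these data known. It holds the subunits of pyruvate dehydrogenase with its kinases and a phosphatase, the enzymes from citrate synthase to malate dehydrogenase, and the enzymes that refill the cycle or move its products between mitochondria and cytosol. RNA was sequenced in 12 libraries of astrocytes from male mice aged 12 to 14 months: 3 Cd38+/+ (wild type), 3 Cd38+/- (1 mutant allele, heterozygous) and 6 Cd38-/- (both alleles mutant). Striatum, thalamus and substantia nigra, labelled together as midbrain, were dissociated, depleted of endothelial cells, myelin and CD11b-positive cells, and the astrocytes were then captured with beads against ACSA-2. The mutant allele is that of the global knockout strain B6.129P2-Cd38tm1Lnd/J, so every cell of the animal carried it and not astrocytes alone. No treatment was given. It is not stated whether each library came from 1 animal, and if it did not, the p-values cover only the spread between these libraries.

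Pyruvate dehydrogenase links glycolysis to the TCA cycle by turning pyruvate into acetyl-CoA in the mitochondrial matrix. The cycle then oxidises the acetyl group, and most of the energy is carried off as NADH made from NAD+ by pyruvate dehydrogenase, isocitrate dehydrogenase, oxoglutarate dehydrogenase and malate dehydrogenase. CD38 is an ectoenzyme that consumes NAD+, and the comparison of genotypes therefore asks how the transcripts of NAD-dependent steps differ when Cd38 is reduced or lost. In astrocytes the cycle also supplies carbon for glutamine, because these cells make new oxaloacetate with pyruvate carboxylase and exchange glutamate with oxoglutarate.

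Cd38 itself was measured at 149, 120 and 105 TPM in the Cd38+/+ libraries, at 90.8, 90.7 and 90.4 TPM in the Cd38+/- libraries and between 8.54 and 21.9 TPM (median 15.7) in the Cd38-/- libraries. TPM is a relative level, corrected for the length of the transcript and scaled so that every library has the same total. The genotypes did not overlap, and the order followed the labels. Only part of the gene is disrupted in this allele, so reads from the remaining exons can still be counted in Cd38-/- libraries. Cd38 changed by a log2 fold change of -2.96 ± 0.28 (SE) in Cd38-/- libraries (q = 0.00116), while the log2 fold change of -0.44 ± 0.18 in Cd38+/- libraries did not pass the test (q = 0.226). Here and below, fold changes, SE, p and q come from limma on log2(TPM + 1) over every gene that averaged more than 5 TPM in 1 or both of the genotypes compared, q is Storey's adjusted p over those genes, and a gene was called when q was under 0.05 and the change was at least 1.2-fold.

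The libraries differed in more than Cd38. The Cd38+/+ libraries held 13160 to 13516 genes above 0 TPM, against 16160 to 16327 in Cd38+/- and 15920 to 17906 in Cd38-/- libraries. All 8 astrocyte markers were above 0 in every library, with a summed level of 5688 to 7001 TPM in Cd38+/+, 9222 to 9815 TPM in Cd38+/- and 6995 to 8959 TPM in Cd38-/- libraries. Erythroid markers (4 genes, none at 0) summed to 7416 to 33080, 3045 to 6035 and 3618 to 14490 TPM, and oligodendrocyte markers (6 genes, with Mog at 0 in the Cd38+/+ libraries) to 1295 to 7183, 3089 to 11010 and 3173 to 17800 TPM, in the same order of genotypes. Neuronal markers (8 genes, with Th at 0 in the Cd38+/+ libraries) summed to 82.8 to 102.1, 54.0 to 87.8 and 61.6 to 154.5 TPM, with the highest sum in Cd38-/- replicate 6. Microglial markers (6 genes, with Cx3cr1 and Tmem119 at 0 in the Cd38+/+ libraries) summed to 98.4 to 102.4, 121 to 138 and 106.4 to 135 TPM, lower in the wild type than in every mutant library. Endothelial markers (5 genes, none at 0) summed to 378 to 1746, 305 to 567.8 and 314 to 1100 TPM, and choroid plexus markers (3 genes, with Kl at 0 in the Cd38+/+ libraries) to 34.7 to 284, 131 to 6905 and 170.0 to 1807 TPM. Mural markers (4 genes, none at 0) summed to 502 to 632, 565 to 881 and 436 to 1020 TPM. Ependymal markers (3 genes, none at 0) summed to 1850 to 3244, 1846 to 2114 and 2298 to 3577 TPM, without overlap between the mutants. The number of genes above 0 and the microglial sum separated the wild type from both mutants. The astrocyte and erythroid sums separated it from Cd38+/- libraries only. The neuronal, oligodendrocyte, endothelial, choroid plexus and mural sums overlapped between all genotypes. The part of these differences in the results given here was not tested. In RNA of sorted cells, fewer cells of a type and less RNA per cell cannot be told apart.

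All 35 genes were above 0 in every library and all 35 passed the filter on low values in each comparison. Their mean log2(TPM + 1) lay between 6.56 and 6.74 in the Cd38+/+ libraries, between 6.80 and 6.97 in the Cd38+/- libraries and between 6.79 and 6.98 in the Cd38-/- libraries, so the wild-type libraries were below all mutant libraries. Over all genes tested the median log2 fold change was also positive, at 0.18 in Cd38+/- and 0.15 in Cd38-/- libraries. Low values lowered 2 of the wild-type means: Pdp1 (0.02 TPM) and Pdk3 (3.01 TPM) in Cd38+/+ replicate 2, and Me3 (0.40 TPM) in replicate 1. The summed level of the 35 genes was 5257 to 5768 TPM in Cd38+/+, 5812 to 6064 TPM in Cd38+/- and 5596 to 6081 TPM in Cd38-/- libraries, which overlap between wild type and knockout. The levels of the genes spanned a wide range. Mdh2, mitochondrial malate dehydrogenase, was the most abundant at a mean of 494.8 TPM over the 12 libraries, followed by its cytosolic counterpart Mdh1 at 470.0 TPM and by Sdha, the flavoprotein of succinate dehydrogenase, at 370.5 TPM. The 5 lowest means were those of the pyruvate dehydrogenase kinases Pdk1 (37.8 TPM), Pdk4 (27.7 TPM) and Pdk3 (11.9 TPM), of the phosphatase Pdp1 (15.2 TPM) and of the mitochondrial malic enzyme Me3 (14.2 TPM).

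**Figure D1:**
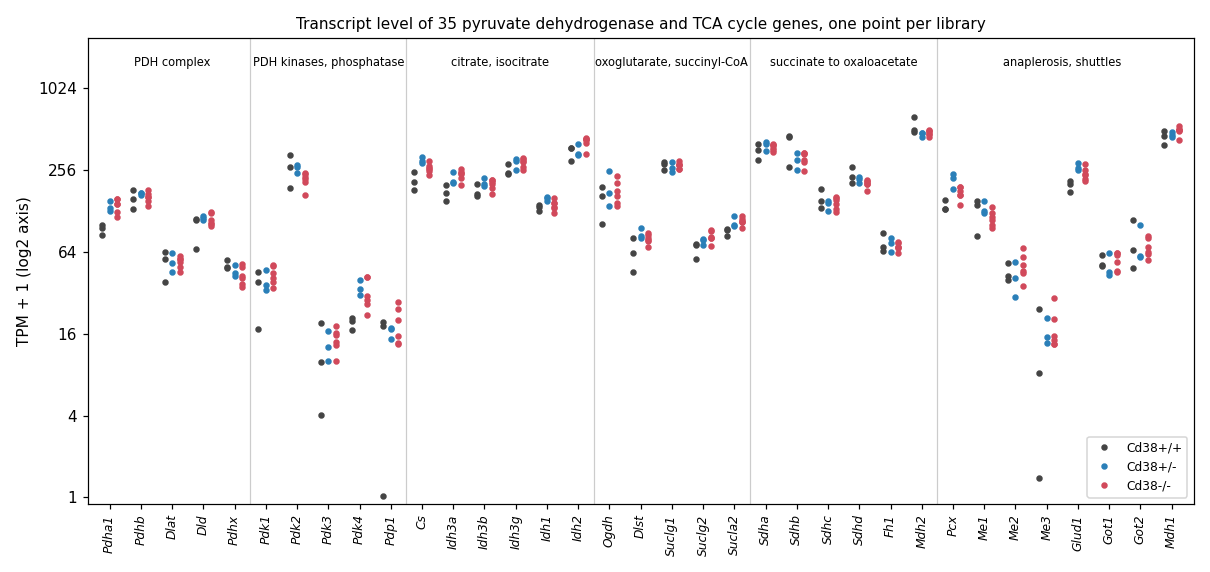
Level of each of the 35 genes in each library, as TPM + 1 on a log2 axis, grouped by role, with 1 point per library coloured by genotype. Most genes lie in a narrow band in all 12 libraries, while Pdp1, Me3 and Pdk3 include wild-type libraries far below the others (0.02, 0.40 and 3.01 TPM).

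Of the 35 genes, Pdha1 and Idh3a rose in Cd38-/- libraries and none fell. Over all 11722 genes tested, 752 were called higher (6.42%) and 218 lower (1.86%), so the share of the 35 genes called higher was close to the background. An unadjusted p under 0.05 was reached by 6 of the 35, all higher: Pdha1, Pdk4, Cs, Idh3a, Pcx and Glud1. Of all genes tested, 17.6% were higher and 5.99% lower at that p, so this share too was close to the background. The libraries of Cd38-/- and Cd38+/+ did not overlap in 5 genes, all higher (Pdha1, Pdk4, Idh3a, Sucla2 and Glud1), and in none lower, against 8.21% of all genes tested higher and 3.62% lower. The log2 fold change was positive in 26 genes and negative in 9, and its median of 0.17 stood beside a median of 0.15 over all genes tested. When libraries were rescaled by the median ratio, the median over all genes became 0.03 and that of the 35 genes 0.04, with 20 of the 35 still positive. The direction of calls over all genes also depended on scaling, since 77.5% of calls were higher as measured, 58.6% after median-ratio scaling and 50.5% after quantile normalization.

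No member was called in Cd38+/- libraries, and no gene at all was called by limma among 11763 tested (0%), although 1586 genes, 5 of the 35 among them, had an unadjusted p under 0.05. The 5 were Pdha1, Pdk4, Cs, Pcx and Glud1, all higher, and all 5 were called when the 12 libraries shared 1 fit, which called 1464 genes. The other fits of all 6 libraries called 0 members, and 0 to 663 genes over the whole table. The Cd38+/- and Cd38+/+ libraries did not overlap in 9 genes that were higher (Pdha1, Pdk4, Cs, Idh1, Idh3a, Dlst, Sucla2, Pcx and Glud1) and 1 that was lower (Mdh2), against 15.5% of all genes tested higher and 6.94% lower. The fold change was positive in 25 genes and negative in 10, with a median of 0.16 on the log2 scale against 0.18 over all genes tested. Median-ratio scaling brought these medians to 0.02 and 0.05 and left 18 of the 35 positive. Both mutant genotypes were set against the same 3 Cd38+/+ libraries, so a low or high wild-type library enters both comparisons.

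**Figure D2:**
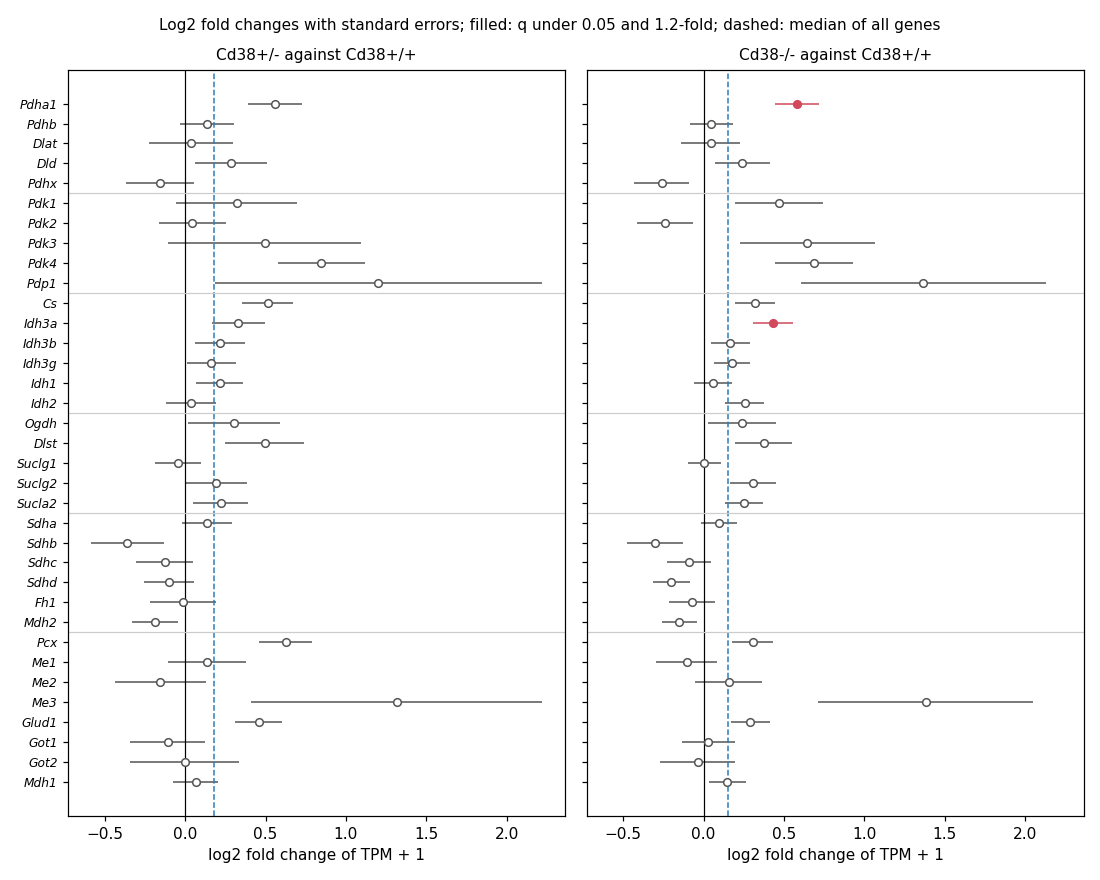
Log2 fold change of TPM + 1 with its standard error for the 35 genes, in Cd38+/- (left) and Cd38-/- (right) against Cd38+/+ libraries, with filled red points for called genes and a dashed line at the median of all genes tested. Pdha1 and Idh3a are the filled points in the right panel, and most genes lie near the dashed lines at 0.18 and 0.15.

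Among the 5 subunits of the pyruvate dehydrogenase complex, 1 rose in Cd38-/- libraries and none passed the test in Cd38+/- libraries. Pdha1 (ENSMUSG00000031299) encodes the alpha subunit of the first enzyme, the subunit that the kinases phosphorylate to switch the complex off. It lies on chromosome X, chrX:160122209-160138413 on the minus strand of GRCm38, in the GENCODE vM21 annotation. Its level was 83.8, 99.1 and 94.8 TPM in the Cd38+/+ libraries, 150, 127 and 134 TPM in the Cd38+/- libraries and between 114 and 156 TPM (median 143.5) in the 6 Cd38-/- libraries. All 9 mutant libraries lay above all 3 wild-type libraries. The log2 fold change was 0.58 ± 0.14 (SE), a 1.49-fold higher level, in Cd38-/- libraries (q = 0.0263). It was 0.56 ± 0.17 in Cd38+/- libraries, where q was 0.177. The call in Cd38-/- libraries was lost without Cd38-/- replicate 1 (q = 0.063), replicate 2 (q = 0.0734), replicate 5 (q = 0.0656) or replicate 6 (q = 0.0629), and under library quality weights (q = 0.341). Its log2 fold change stayed between 0.51 and 0.63 when single libraries were left out, and q ranged from 0.0102 to 0.349 over the other alternatives.

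Pdhb, the partner beta subunit of the same enzyme, overlapped between genotypes. It was measured at 183, 132 and 155 TPM in Cd38+/+, at 166, 174 and 172 TPM in Cd38+/- and between 139 and 183 TPM (median 162) in Cd38-/- libraries. Its log2 fold change was 0.14 ± 0.17 with 1 mutant allele and 0.05 ± 0.13 with both. The alpha and beta subunits are made from separate genes, and whether their fold changes differ from each other was not tested. For each gene, the region from 250 bases before to 50 bases after the transcription start is shown. The sequence is from RefSeq on GRCm38.p6, 5′ to 3′ on the minus strand, where both genes lie. The Pdha1 window is chrX:160138381-160138680 and the Pdhb window chr14:8172943-8173242. Capitals mark GC boxes (GGGCGG) and CCAAT boxes (written ATTGG when on the other strand).
Pdha1: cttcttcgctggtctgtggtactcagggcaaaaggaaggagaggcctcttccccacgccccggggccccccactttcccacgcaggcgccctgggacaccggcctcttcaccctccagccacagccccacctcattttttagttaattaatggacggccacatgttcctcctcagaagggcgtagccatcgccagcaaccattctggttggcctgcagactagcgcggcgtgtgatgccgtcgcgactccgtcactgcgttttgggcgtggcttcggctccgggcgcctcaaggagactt
Pdhb: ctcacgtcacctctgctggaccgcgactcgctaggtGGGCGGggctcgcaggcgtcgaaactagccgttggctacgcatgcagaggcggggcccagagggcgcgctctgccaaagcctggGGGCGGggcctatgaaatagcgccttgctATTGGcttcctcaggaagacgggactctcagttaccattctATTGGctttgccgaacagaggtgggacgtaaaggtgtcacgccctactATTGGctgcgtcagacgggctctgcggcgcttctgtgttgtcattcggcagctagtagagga
The Pdhb window holds 2 GC boxes and 3 CCAAT boxes on the other strand, and the Pdha1 window holds neither motif, at a similar GC content of 62.0% for Pdha1 and 61.0% for Pdhb. Of the 35 genes, 31 matched a promoter entry by symbol. These 31 had 41 windows, of which 24 held a GC box and 25 a CCAAT box, both strands counted, against 35.7% and 37.4% of all 32851 windows in the table. These were 2 of 6 motifs searched, chosen for display after the matches were seen. The other 4 were found in fewer of the 41 windows: GCGCATGC in 4 (2.71% of all windows), AAGGTCA in 3 (4.72%), TATAAA in 1 (13.6%) and TGACGTCA in 4 (1.79%). Windows of the same gene can share sequence, and these matches are a description of the letters only.

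Dlat, the acetyltransferase core of the complex, was measured at 37.2, 56.1 and 62.7 TPM in Cd38+/+, at 61.3, 44.2 and 52.2 TPM in Cd38+/- and between 44.2 and 58.6 TPM (median 54.1) in Cd38-/- libraries. The genotypes overlapped, and the log2 fold change was 0.04 in both comparisons. Dld is the dihydrolipoamide dehydrogenase that passes electrons to NAD+ in this complex and in the oxoglutarate and branched-chain complexes. Its level was 65.9, 108 and 110 TPM in Cd38+/+, 116, 109 and 113 TPM in Cd38+/- and between 98.2 and 124 TPM (median 107) in Cd38-/- libraries. Cd38+/+ replicate 1 alone lay far below the others, and the log2 fold changes of 0.28 ± 0.23 and 0.24 ± 0.17 did not pass the test. Pdhx, which anchors Dld to the core, had negative log2 fold changes of -0.16 ± 0.21 in Cd38+/- and -0.26 ± 0.17 in Cd38-/- libraries, neither of which passed the test. The summed level of the 5 subunits was 424.0 to 470.5 TPM in Cd38+/+, 497 to 534 TPM in Cd38+/- and 473 to 548 TPM in Cd38-/- libraries, without overlap between wild type and either mutant. Pdha1 alone accounts for most of that gap, since its mean was 92.5 TPM in Cd38+/+ and 139 TPM in Cd38-/- libraries.

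The kinases that inactivate the complex and the phosphatase that reactivates it gave 0 calls by limma in either comparison, with 1 of the 5 genes, Pdk4, at an unadjusted p under 0.05 in each, and 0 called in the other fits of all libraries except for Pdk4 when the 12 libraries shared 1 fit. Pdk2, the kinase with the highest transcript level in these cells, made up 73.0 to 87.5% of the summed TPM of the 4 kinases in Cd38+/+, 72.8 to 77.4% in Cd38+/- and 66.9 to 74.6% in Cd38-/- libraries. Pdk4, a kinase induced in many tissues when fat is the main fuel, was measured at 19.9, 18.9 and 16.2 TPM in Cd38+/+, at 38.8, 29.8 and 32.9 TPM in Cd38+/- and between 20.8 and 41.0 TPM (median 28.4) in Cd38-/- libraries. Every mutant library lay above every wild-type library, although the lowest Cd38-/- library was within 1 TPM of the highest wild-type one. On the log2 scale Pdk4 was 0.85 ± 0.27 higher in Cd38+/- (q = 0.191) and 0.69 ± 0.24 higher in Cd38-/- libraries (q = 0.0688). Pdk4 held 4.94 to 6.31% of kinase TPM in Cd38+/+, 9.24 to 10.5% in Cd38+/- and 7.48 to 12.7% in Cd38-/- libraries. Pdk1 and Pdk3 had positive log2 fold changes of 0.32 to 0.65 with standard errors of 0.27 to 0.60, and that of Pdk3 in Cd38-/- libraries went from 0.65 to 0.05 without Cd38+/+ replicate 2 and to 1.18 without Cd38+/+ replicate 1 (q = 0.0374). Pdp1 was listed at 0.02 TPM in Cd38+/+ replicate 2 but at 17.3 and 18.5 TPM in the other wild-type libraries, and without that library its log2 fold change, 1.37 ± 0.76 in Cd38-/- libraries (q = 0.169), became -0.04.

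Citrate synthase (Cs) joins acetyl-CoA to oxaloacetate. Its enzyme activity, which RNA does not measure, is widely used as a measure of mitochondrial content. The Cs transcript was measured at 181, 246 and 209 TPM in Cd38+/+ and at 297, 286 and 320 TPM in Cd38+/- libraries. The Cd38-/- libraries lay between 235 and 297 TPM (median 263), overlapping the highest wild-type library. For Cs the log2 fold change was 0.51 ± 0.16 in Cd38+/- (q = 0.184) and 0.32 ± 0.12 in Cd38-/- libraries (q = 0.0827), and neither passed the test.

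Idh3a rose in Cd38-/- libraries. It encodes the catalytic alpha subunit of NAD-dependent isocitrate dehydrogenase, a rate-setting step of the cycle, and lies at chr9:54586334-54604661 on the plus strand of GRCm38 (GENCODE vM21). Its level was 152, 173 and 197 TPM in Cd38+/+, 245, 203 and 208 TPM in Cd38+/- and between 198 and 261 TPM (median 239) in Cd38-/- libraries. The groups did not overlap, but the highest wild-type library (197.34 TPM) and the lowest knockout library (198.02 TPM) nearly met. Against the wild type Idh3a stood at 0.43 ± 0.13 on the log2 scale in Cd38-/- (1.35-fold, q = 0.0433) and 0.33 ± 0.16 in Cd38+/- libraries (q = 0.255). The call was close to the threshold, and it was lost with Benjamini-Hochberg adjustment (adjusted p = 0.0765), with median-ratio scaling (log2 fold change 0.30, q = 0.0801), with the length and GC trend of each library removed (q = 0.0575), with library quality weights (q = 0.392) and without any one of Cd38+/+ replicate 1 and Cd38-/- replicates 1, 2, 3, 5 and 6. When single libraries were left out its log2 fold change stayed between 0.34 and 0.53, with q of up to 0.101, and over the other alternatives q ranged from 0.0219 to 0.392.

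The other 2 subunits of the same enzyme did not pass the test. Idh3b was measured at 200, 165 and 168 TPM in Cd38+/+, at 195, 221 and 201 TPM in Cd38+/- and between 170 and 214 TPM (median 204) in Cd38-/- libraries. Idh3g, the other regulatory subunit, was at 284, 239 and 244 TPM in Cd38+/+, at 254, 306 and 299 TPM in Cd38+/- and between 255.9 and 312 TPM (median 295) in Cd38-/- libraries. Both genes overlapped between genotypes, with log2 fold changes of 0.22 and 0.16 in Cd38+/- and 0.17 and 0.17 in Cd38-/- libraries. The remaining isocitrate dehydrogenases use NADP+ and make NADPH. Idh1, the cytosolic enzyme, was at 128, 136 and 140 TPM in Cd38+/+, at 157, 149.7 and 162 TPM in Cd38+/- and between 123 and 158 TPM (median 141) in Cd38-/- libraries. Only the Cd38+/- libraries lay above the wild type without overlap, and its log2 fold changes of 0.22 ± 0.15 and 0.06 ± 0.12 did not pass the test. Idh2, the mitochondrial enzyme, had log2 fold changes of 0.04 ± 0.15 in Cd38+/- and 0.26 ± 0.12 in Cd38-/- libraries (q = 0.131).

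None of the 5 genes from oxoglutarate to succinate was called by limma in either comparison, none had an unadjusted p under 0.05, and no other fit of all libraries called one. Ogdh, the oxoglutarate dehydrogenase itself, varied widely within genotypes, at 192, 101 and 165 TPM in Cd38+/+, 252, 139 and 172 TPM in Cd38+/- and 138 to 231 TPM (median 171) in Cd38-/- libraries. Dlst, the succinyltransferase core of that complex, was at 61.9, 80.2 and 44.1 TPM in Cd38+/+, at 94.2, 80.3 and 82.3 TPM in Cd38+/- and between 68.8 and 86.7 TPM (median 78.4) in Cd38-/- libraries. The Cd38+/- libraries were above the wild type by a margin of less than 1 TPM at the nearest point, the Cd38-/- libraries overlapped it, and the log2 fold changes were 0.49 ± 0.24 and 0.37 ± 0.18. Succinyl-CoA ligase has a shared alpha subunit, Suclg1, and either of 2 beta subunits, Sucla2 for the ATP-forming and Suclg2 for the GTP-forming enzyme. Sucla2 was at 91.8, 93.5 and 82.9 TPM in Cd38+/+, at 116, 98.2 and 99.7 TPM in Cd38+/- and between 94.8 and 116 TPM (median 106) in Cd38-/- libraries. All mutant libraries lay above the wild type, but the log2 fold changes of 0.22 ± 0.17 and 0.25 ± 0.12 (q = 0.129) did not pass the test. Suclg2 gave 0.19 ± 0.19 and 0.31 ± 0.14, and Suclg1 gave -0.04 ± 0.14 and 0.00 ± 0.10.

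The genes from succinate to oxaloacetate had mostly negative fold changes, and none passed the test. Of Sdha, Sdhb, Sdhc, Sdhd, Fh1 and Mdh2, 5 of 6 were below 0 in both comparisons, with Sdha the exception (0.14 ± 0.15 and 0.09 ± 0.11). After median-ratio scaling all 6 were below 0 in both comparisons, with medians of -0.25 in each, and under quantile normalization 5 of 6 were. The median of the 6 genes was -0.11 in Cd38+/- and -0.12 in Cd38-/- libraries, below the medians over all genes of 0.18 and 0.15, a difference that was not tested. Sdhb, the iron-sulfur subunit of succinate dehydrogenase, had the most negative values, -0.36 ± 0.23 and -0.30 ± 0.17. Its wild-type libraries were split, at 456, 449 and 267 TPM, and the third lay within the range of the Cd38-/- libraries (249 to 343 TPM). Mdh2, which makes NADH from malate in the matrix, was at 626, 498 and 485 TPM in Cd38+/+, at 449.9, 475 and 479 TPM in Cd38+/- and between 449.8 and 501 TPM (median 482) in Cd38-/- libraries. The Cd38+/- libraries were below the wild type without overlap, with a log2 fold change of -0.19 ± 0.15 (q = 0.360), and the Cd38-/- libraries overlapped it (-0.15 ± 0.11). Mdh1, its cytosolic partner in the malate-aspartate shuttle, was at 496, 456 and 392 TPM in Cd38+/+, at 463, 488 and 449.8 TPM in Cd38+/- and between 426 and 542 TPM (median 499.98) in Cd38-/- libraries. It overlapped in both comparisons, with log2 fold changes of 0.07 and 0.15.

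Among the enzymes that refill the cycle, Pcx and Glud1 had an unadjusted p under 0.05 against the wild type in each mutant genotype, and neither passed the test. Pcx, pyruvate carboxylase, is expressed in astrocytes rather than neurons and supplies new oxaloacetate. It was measured at 132, 153 and 131 TPM in Cd38+/+, at 224, 183 and 238 TPM in Cd38+/- and between 139.9 and 191 TPM (median 172) in Cd38-/- libraries. The Cd38+/- libraries stood clear of the wild type (0.62 ± 0.17 on the log2 scale, q = 0.176), and the Cd38-/- libraries overlapped it and lay nearer to it (0.30 ± 0.13, q = 0.102). Glud1, glutamate dehydrogenase, interconverts glutamate and oxoglutarate with NAD+ or NADP+ and was at 176, 212 and 201 TPM in Cd38+/+, at 265, 254 and 289 TPM in Cd38+/- and between 213 and 280 TPM (median 237) in Cd38-/- libraries. Neither mutant genotype overlapped the wild type, although the lowest knockout library (212.54 TPM) lay just above the highest wild-type one (211.65 TPM). The log2 fold changes were 0.46 ± 0.15 (q = 0.191) and 0.29 ± 0.12 (q = 0.101). The malic enzymes convert malate to pyruvate. Me2, the NAD-dependent mitochondrial form, was at 38.4, 41.3 and 52.4 TPM in Cd38+/+, at 52.6, 28.6 and 39.8 TPM in Cd38+/- and between 34.98 and 67.0 TPM (median 47.6) in Cd38-/- libraries, overlapping throughout. The NADP-dependent forms were Me1 in the cytosol, at 0.13 ± 0.24 and -0.11 ± 0.19 on the log2 scale, and Me3 in mitochondria, at 1.32 ± 0.90 and 1.38 ± 0.67. Me3 was at 0.40, 7.21 and 23.2 TPM in the wild-type libraries, a spread that exceeded its range in all 9 mutant libraries (12.3 to 28.3 TPM), and without Cd38+/+ replicate 1 its log2 fold change in Cd38-/- libraries was 0.27. The aspartate aminotransferases Got1 and Got2 had log2 fold changes between -0.11 and 0.03.

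**Figure D3:**
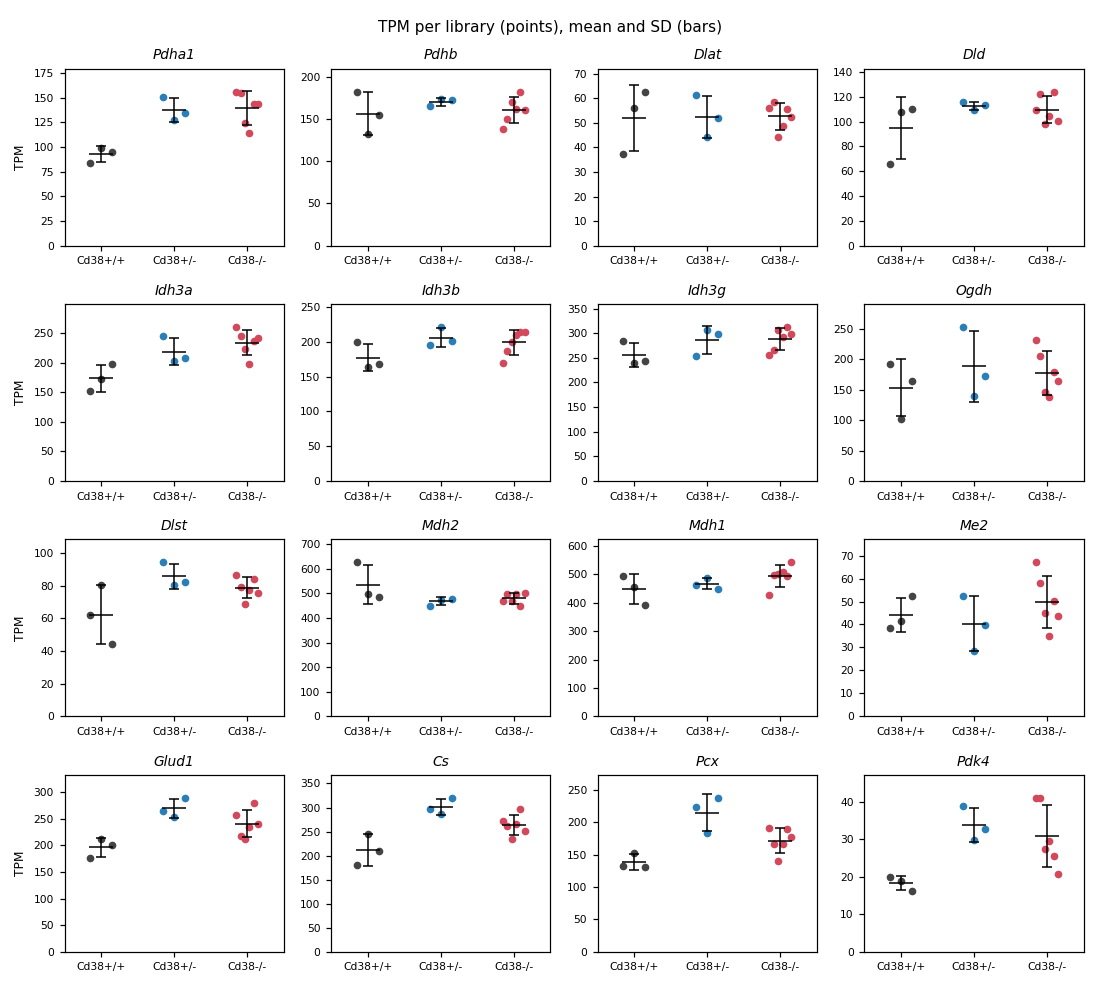
TPM in each library, with the mean and SD per genotype, for the 13 genes of NAD-dependent steps and for Cs, Pcx and Pdk4, on linear axes that start at 0. Pdha1, Idh3a, Glud1 and Pdk4 show no overlap between wild-type and mutant libraries, while Pdhb, Dlat, Ogdh, Mdh1 and Me2 overlap in all 3 genotypes.

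Set out by cofactor, 13 genes listed for NAD-dependent steps (Pdha1, Pdhb, Dlat, Dld, Idh3a, Idh3b, Idh3g, Ogdh, Dlst, Mdh1, Mdh2, Me2 and Glud1) contained both called genes. Pdhx, the anchoring subunit, was not on that list, and with it 12 of 14 fold changes were positive in Cd38-/- and 11 of 14 in Cd38+/- libraries. In Cd38-/- libraries 2 were called higher (6.42% of all genes tested), 3 did not overlap the wild type and were higher (8.21%), and 12 of 13 fold changes were positive (64.3%), with a median of 0.17 on the log2 scale. In Cd38+/- libraries none was called by limma (2 had an unadjusted p under 0.05, Pdha1 and Glud1, and both were called when the 12 libraries shared 1 fit), 4 did not overlap and were higher (15.5% of all genes tested), 1 did not overlap and was lower (6.94%), 11 of 13 fold changes were positive (64.4%), and the median was 0.22. These medians stood beside 0.15 and 0.18 over all genes tested. After median-ratio scaling they were 0.05, with 10 of 13 positive, in Cd38-/- and 0.08, with 8 of 13 positive, in Cd38+/- libraries. The NADP-dependent enzymes Idh1, Idh2, Me1 and Me3 had medians of 0.16 in Cd38-/- and 0.17 in Cd38+/- libraries, with no call by limma in any fit of all libraries of either comparison and none at an unadjusted p under 0.05 as first fitted. Called subunits shared a complex with subunits that were not called, as Pdha1 with Pdhb, and Idh3a with Idh3b and Idh3g. Whether the difference within such a complex exceeds the spread of the libraries was asked for Idh3a and Idh3b as a ratio.

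A ratio of 2 genes within a library does not depend on how that library was scaled. For 6 ratios in 3 comparisons, 18 two-sided exact permutation tests of the log2 ratio were made, and none passed Benjamini-Hochberg adjustment. With 3 libraries against 3 the smallest possible p is 0.1, and with 6 against 3 it is 0.0119. A test of 3 against 3 therefore could not pass. A test of 6 against 3 could pass adjustment over 18 tests only if several tests reached the smallest p together. The absence of a pass thus does not decide whether any ratio differs. The ratio of cytosolic Mdh1 to mitochondrial Mdh2 was 0.30 higher on the log2 scale in Cd38-/- than in Cd38+/+ libraries (exact p = 0.0238, adjusted p = 0.214) and 0.25 higher in Cd38+/- libraries (exact p = 0.1, adjusted p = 0.300). The ratio of Pdk4 to Pdk2 was 0.95 higher in Cd38-/- (exact p = 0.0238, adjusted p = 0.214) and 0.84 higher in Cd38+/- libraries (exact p = 0.1, adjusted p = 0.300). Idh1 to Idh2 was lower in Cd38-/- than in Cd38+/- libraries (log2 difference -0.38, exact permutation p = 0.0476, adjusted p = 0.286). Idh3a to Idh3b differed between Cd38-/- and Cd38+/+ libraries by 0.27 (exact permutation p = 0.202), within the spread of the libraries. The remaining ratios, of Sucla2 to Suclg2 and of Got1 to Got2, had unadjusted p of 0.0833 or more.

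**Figure D4:**
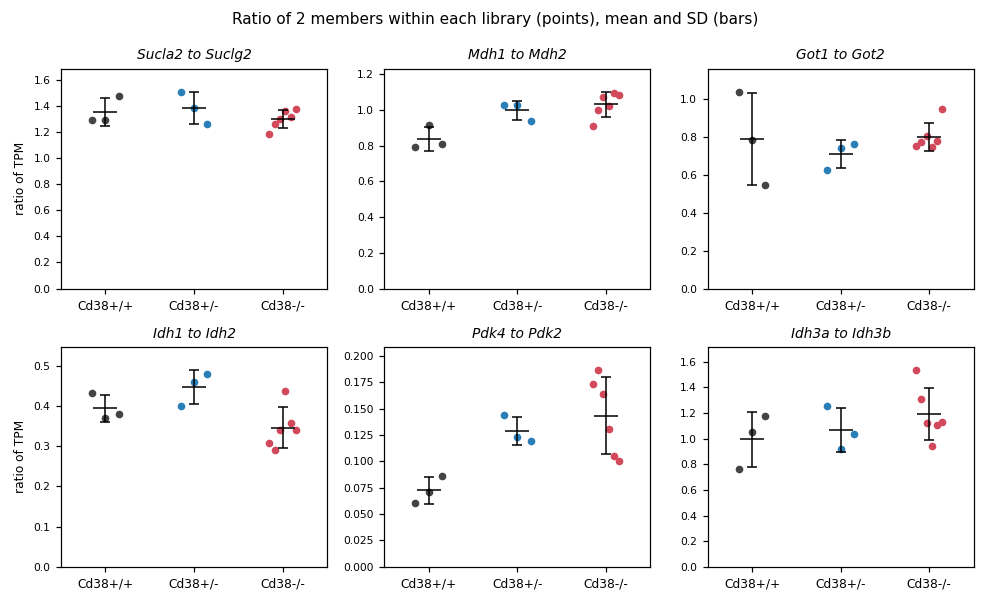
Ratio of the TPM of 2 genes in each library, with the mean and SD per genotype, for 6 pairs on axes that start at 0. The Pdk4 to Pdk2 ratio lies lower in all 3 wild-type libraries than in all 9 mutant libraries, while for Sucla2 to Suclg2 and Got1 to Got2 the genotypes overlap.

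Cd38-/- and Cd38+/- libraries differed little in these genes. None of the 35 was called and none was without overlap, against 4 genes called (0.0346%) and 5.73% without overlap in either direction among 11563 tested. By limma, 1299 genes had an unadjusted p under 0.05, among them 2 of the 35, both lower in Cd38-/- libraries: Pdk2 (-0.28 ± 0.12, q = 0.299) and Pcx (-0.32 ± 0.12, q = 0.269). The other fits of all libraries called 0 of the 35, except library quality weights with 7, a fit whose weights did not converge. The median log2 fold change was 0.01, beside -0.02 over all genes tested. Between the mutants Pdha1 differed by 0.02 ± 0.12 and Idh3a by 0.10 ± 0.10 on the log2 scale.

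Of 24 further genes around the pathway (pyruvate and citrate carriers, lipoylation enzymes, succinate dehydrogenase assembly factors and others), 22 passed the filter, and Sdhaf3 and Slc25a13 did not. In Cd38-/- libraries 3 of the 22 rose and none fell, against 6.42% of all genes tested called higher and 1.86% lower. Dhtkd1 and Pdpr averaged 2.32 and 2.62 TPM in Cd38+/+ libraries and passed the filter only through the Cd38-/- libraries. The direction of those calls was therefore fixed by the filter. Sdhaf2, which inserts FAD into Sdha, was at 29.8, 16.3 and 34.1 TPM in Cd38+/+, at 45.3, 54.4 and 51.7 TPM in Cd38+/- and between 47.2 and 56.0 TPM (median 53.3) in Cd38-/- libraries. The mutants stood clear of the wild type, with a log2 fold change of 1.01 ± 0.21 in Cd38-/- libraries (q = 0.0195). Dhtkd1, a homologue of Ogdh in lysine breakdown, was at 0.65, 2.97 and 3.33 TPM in Cd38+/+ and between 5.51 and 8.79 TPM (median 7.36) in Cd38-/- libraries (1.43 ± 0.39, q = 0.0365). Pdpr, the regulatory subunit of the pyruvate dehydrogenase phosphatase, was at 7.79, 0.04 and 0.04 TPM in Cd38+/+ and between 7.56 and 18.2 TPM (median 13.0) in Cd38-/- libraries (2.62 ± 0.63, q = 0.0274), and wild type and knockout overlapped because of Cd38+/+ replicate 1. In Cd38+/- libraries none of the 22 was called by limma, and 5 had an unadjusted p under 0.05, all higher. Dhtkd1 and Pdpr were among them, and here too they passed the filter only through the mutant libraries. The most abundant of these genes were Glul, glutamine synthetase, with a mean of 1063 TPM over the 12 libraries, and Mpc1, a subunit of the mitochondrial pyruvate carrier, with 483 TPM. Neither was called, with log2 fold changes in Cd38-/- libraries of -0.27 ± 0.19 and -0.04 ± 0.15.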

How the data were processed

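Values were deposited as TPM per gene and library. Per the methods and the submitters' processing notes, the authors trimmed reads with Trim Galore 0.6.4, mapped them to mm10 with STAR 2.7.1a and estimated levels with RSEM 1.2.28. The notes also list DESeq2 1.36.0, and the annotation is not given in the sources used here. Per the methods, RNA was depleted of ribosomal RNA and amplified with a low-input full-length cDNA kit before paired-end sequencing. The labels instead give the molecule as polyA RNA, and the difference is not explained. TPM keeps no read number, so depth is unknown and no counting interval was computed.

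Genotypes came from the labels. For each pair of genotypes, a gene was kept if it averaged more than 5 TPM in 1 or both, and kept genes were fitted as log2(TPM + 1) with limma 3.58.1 (lmFit, eBayes with a trend, R 4.3.3), using only the compared libraries. The pseudocount of 1 understates changes of low genes. Storey q-values used lambda from 0.05 to 0.95 in steps of 0.05. The study's methods give the filter and thresholds but no model, so limma was a choice made here. The procedure was tested on simulated data. Ratios were compared with exact permutation tests. Gene positions, GC content and transcript lengths were read from GENCODE vM21 (GRCm38), which held 20503 of 20614 genes, and figures from matplotlib 3.10.9 under Python 3.11.15.

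The 35 genes and the other lists were chosen with earlier results of these data known. Library values are given for called genes, genes without overlap between wild type and a mutant, Cs and genes of NAD-dependent steps. Of the further genes, those called and the 3 most abundant were to be named, of which 1 is not reported here. Sdhb, Pdp1, Me3 and single values outside this rule were added after their values were seen. The analysis was repeated with a pseudocount of 0.1 or 5, without the filter, with genes of at least 1 TPM throughout, with Benjamini-Hochberg adjustment, with library quality weights (statmod 1.5.0), after median-ratio scaling or quantile normalization, with all 12 libraries fitted together, with replicate number as a block, and with a spline with 4 df of each library on GC content and length subtracted while its mean was kept, alone and with the block. Single libraries were also left out.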

Additional observations from a re-analysis of the deposited data

How the results depend on the processing

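Against the wild type, the log2 fold change of Pdha1 and Idh3a was positive under every alternative and omission tried in both mutant genotypes, but the number of calls was not stable. In Cd38-/- against Cd38+/+ libraries, 970 genes and 2 of the 35 were called as reported. Benjamini-Hochberg adjustment called 326 and 1, library quality weights 1 and 0, 1 fit of all libraries 1822 and 4, and no filter 2283 genes. Median-ratio scaling and removal of the length and GC trend each called 1 of the 35, and 79.3% of calls were higher after that removal. Leaving out single libraries gave 74 (without Cd38-/- replicate 2) to 3119 genes (without Cd38+/+ replicate 3) and 0 to 7 of the 35. It gave 0 of the 35 without Cd38-/- replicate 1, 2, 5 or 6, 1 without replicate 3, 4 without Cd38+/+ replicate 2 (Pdha1, Cs, Idh3a and Dlst), and 7 without Cd38+/+ replicate 3 (Pdha1, Pdk1, Pdk2, Pdp1, Idh3a, Sdhb and Me3), of which 2 were lower.

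In Cd38+/- against Cd38+/+ libraries, no filter called 663 genes, quality weights 30, and 1 fit of all libraries 1464 with 5 of the 35. Omissions gave 0 to 10 genes, the latter without Cd38+/+ replicate 3. Between the mutants, quality weights called 3120 genes and 7 of the 35, median-ratio scaling 1 gene, 1 fit of all libraries 1, removal of the length and GC trend 2, and omissions 0 to 93, the latter without Cd38-/- replicate 4. The weights did not converge in the comparisons with Cd38+/- libraries. Over the 35 genes, the median change on the log2 scale was 0.0242 in Cd38+/- and 0.041 in Cd38-/- libraries after median-ratio scaling, and -0.0736 between the mutants after removal of the length and GC trend. With libraries left out it lay between 0.106 and 0.228, 0.114 and 0.191, and -0.0365 and 0.0102. The cause of these changes was not tested. No ratio passed under any alternative. With libraries left out the smallest possible p of the exact tests is no lower, so this says little about how stable the ratios are.

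Libraries of the same replicate number did not deviate alike throughout. Their deviations correlated at -0.00287 to 0.0514 between Cd38+/- and Cd38+/+ and at -0.0947 to -0.0408 between Cd38-/- and Cd38+/+. Between the mutants the correlation was 0.501 for replicate 1, -0.317 for replicate 2 and -0.00308 for replicate 3. Differently numbered libraries were not compared, so whether the numbers pair any libraries is not settled. With the number as a block, the 3 comparisons called 4, 2 and 2 genes, and with the length and GC trend removed as well 2, 2 and 9. Neither of these fits called any of the 35 genes, with q of 0.325 and 0.349 for Pdha1 and 0.337 and 0.374 for Idh3a in Cd38-/- libraries. Cd38-/- replicates 4, 5 and 6 share their number with no other library, so the block absorbs them. Block fits with Cd38-/- libraries thus rest on replicates 1, 2 and 3 of each genotype, and fewer calls follow from that design. Because TPM keeps no depth, differences in the low genes Pdp1, Me3, Pdk3, Dhtkd1 and Pdpr cannot be set against counting error.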
